A study of Mus musculus with 4 samples.

Results

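Signalling through the epidermal growth factor receptor family was read from 10 genes: the receptor genes Egfr, Erbb2 and Erbb3, the ligand genes Areg, Ereg, Hbegf, Tgfa and Btc, and the inhibitor genes Lrig1 and Errfi1. The members were all probe sets whose symbol in the platform annotation was one of these names. This gave 23 of 45037 probe sets, which covered 9 of the 18193 named genes. Areg had no named probe set and is not analysed here. The arrays were made from basal keratinocytes of tail skin of CD-1 mice. InvCREER/RosaYFP mice carried a tamoxifen-inducible Cre driven by the involucrin promoter and received 10 ug of tamoxifen. K14CREER/RosaYFP mice carried the same kind of Cre driven by the keratin 14 promoter and received 1 ug, so Cre line and dose cannot be told apart. Both lines carried a Rosa YFP reporter, which stays on in a cell where Cre has acted and in its progeny. The titles give 3.5 days and the treatment protocol 4 days between induction and collection, and the labels give no age. Living YFP-positive cells with high alpha6 integrin and no surface CD34 were sorted, with 2 arrays per line. Nothing in the labels ties an array to its own mouse, and a p-value here reflects only how far these arrays scatter, which may be technical.

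The ERBB receptors are tyrosine kinases that pair when a ligand binds and then drive the RAS-ERK and PI3K pathways. Their ligands are made as membrane-bound precursors and are released by ADAM proteases. Keratinocytes make several of these ligands themselves, and in epidermis the pathway is known for promoting growth and migration and for restraining differentiation.

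The labelled cell type was checked against markers. Krt14, the keratin of the basal layer, was at 13.82 and 13.85 on the InvCREER arrays, against 14.14 and 14.17 on the K14CREER arrays (log2 values here and below). Single arrays stood apart. InvCREER 1 had the highest Xist, at 12.56 against 5.44 to 8.26 on the other arrays, and the lowest Uty, a Y-linked gene, at 4.70 against 7.19 to 7.85. Its 3' Actb control probe set exceeded the 5' one by 1.24, a sign of RNA quality. This excess was 0.94 on K14CREER 1, 0.77 on InvCREER 2 and 0.68 on K14CREER 2. For Gapdh it was 0.74 on InvCREER 1, 0.33 on K14CREER 1, 0.05 on InvCREER 2 and 0.07 on K14CREER 2. K14CREER 1 had the highest Cd34, the surface marker sorted against, at 6.07 against 3.59 to 3.88. Among marker lists, 8 named sebaceous gland genes averaged 9.69 and 8.01 in InvCREER, against 6.62 and 6.05 in K14CREER. The 10 Langerhans cell markers averaged 7.49 and 6.21 in InvCREER, against 5.76 and 5.44 in K14CREER, and 3 of them lay below the filter on dim probe sets. The 10 dermal fibroblast markers averaged 5.64 and 5.42 in InvCREER, against 6.57 and 5.73 in K14CREER, with 5 below the filter. Of the 8 Merkel cell markers 6 lay below the filter, and their means were 4.49 and 4.56 in InvCREER, against 5.36 and 4.49 in K14CREER. All 10 basal keratinocyte markers had lower means in InvCREER, and limma called 2 of them. All 9 named spinous markers had higher means, and limma called 8. Of all 11270 tested genes 1.33% were called, 5842 had lower means in InvCREER and 5428 higher ones. Since these lists were chosen with earlier results of these data known, the counts are no independent test. Each comparison below was also made without each array in turn.

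**Figure D1:**
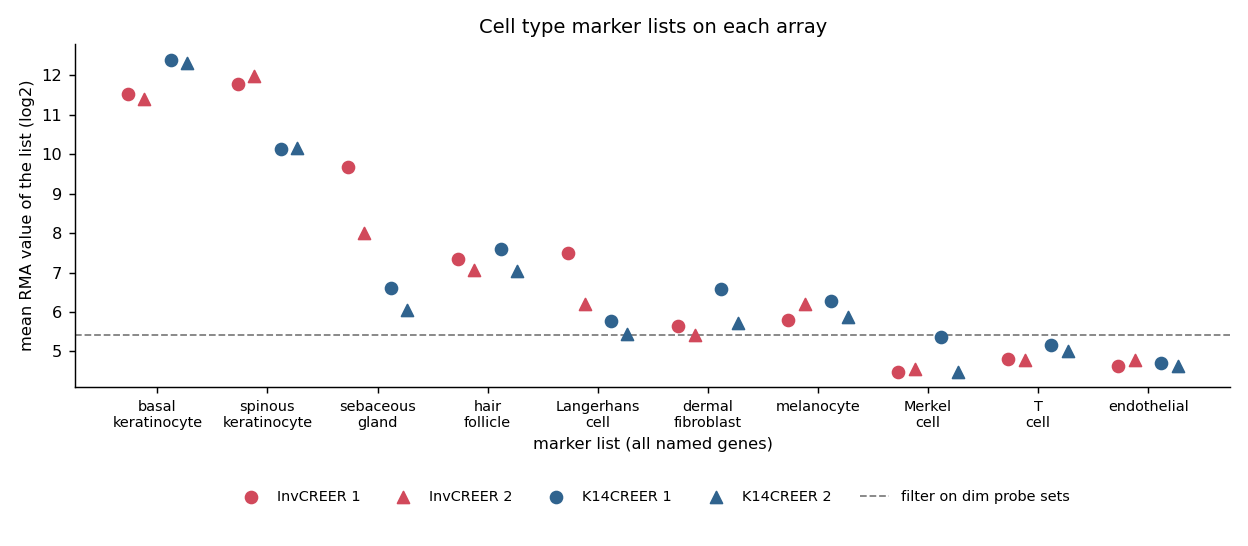
Mean RMA value (log2) of all named genes of each cell type marker list on the 4 arrays. Red marks InvCREER, blue marks K14CREER, circles are array 1 and triangles array 2, and the dashed line is the filter on dim probe sets at 5.42. Sebaceous and Langerhans lists are highest on InvCREER 1. The basal keratinocyte, hair follicle, fibroblast, melanocyte, Merkel and T cell lists are highest on K14CREER 1.

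No EGFR family gene passed the test between the lines, and the differences of the members did not share a sign. Erbb2 and Erbb3 lay higher on both InvCREER arrays than on both K14CREER arrays, while Errfi1 and Hbegf lay lower. Egfr, Tgfa and Lrig1 overlapped between the lines on their brightest probe sets, though a dimmer probe set of Egfr and one of Tgfa did not. Ereg and Btc were too dim to be tested. Of the 23 probe sets 17 passed the filter, a mean log2 value of at least 5.42, and they covered 7 genes. limma with Benjamini-Hochberg adjustment over all 22519 tested probe sets called 0 of the 17 at an adjusted p under 0.05, against 0.959% of all tested probe sets (0.684% higher and 0.275% lower). The smallest adjusted p of a member was 0.118 (limma). At an unadjusted p under 0.05 there were 4 of the 17, against 13.9% of all tested probe sets. The arrays of the lines did not overlap in 8 of the 17, 3 higher and 5 lower in InvCREER. That share was 47.1%, against 42.0% of all tested probe sets (20.0% higher and 22.1% lower), a background to which it lies close. Over the 7 tested genes, each read from its probe set with the highest mean, the median difference was -0.24, against -0.01 over 11270 tested genes. Without overlap, 2 of the 7 were higher in InvCREER and 2 lower, against 21.3% and 24.1% of all tested genes. With 2 arrays per line the smallest 2-sided p of an exact permutation test is 0.33, so no single value could pass one. In sorted bulk samples fewer cells of a type and less RNA per cell cannot be told apart.

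**Figure D2:**
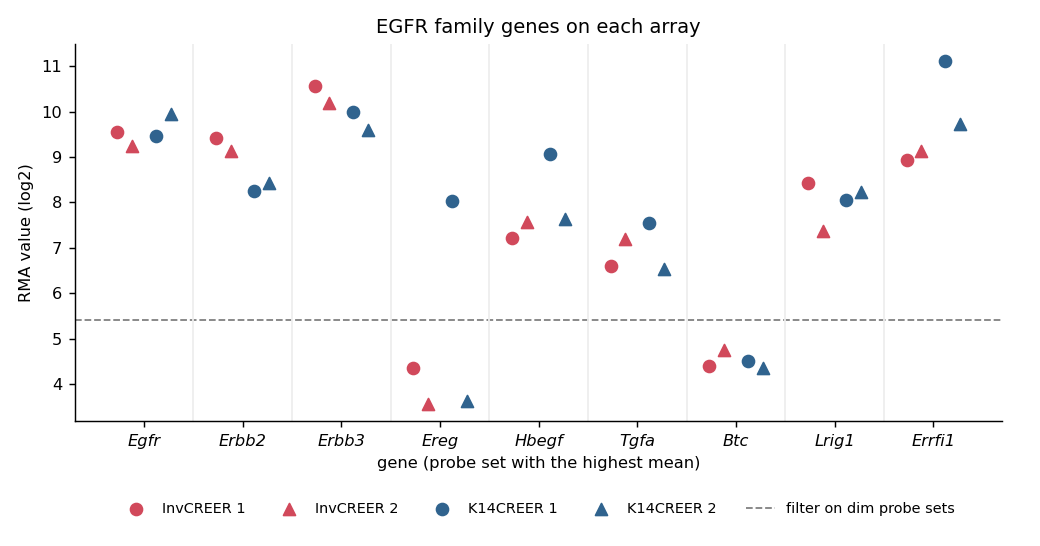
RMA values (log2) of the 9 genes with a named probe set on the 4 arrays, each from its probe set with the highest mean; red is InvCREER and blue K14CREER, circles are array 1 and triangles array 2. Erbb2 and Erbb3 are higher on both InvCREER arrays, and Ereg, Hbegf, Tgfa and Errfi1 are highest on K14CREER 1. Ereg on K14CREER 1, at 8.03, stands above the dashed filter line at 5.42, under which its other arrays and Btc lie.

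Among the receptors, Erbb2 had the smallest p of the family. Erbb2 encodes the family member that has no known soluble ligand of its own and acts as the partner of the others. Its single probe set read 9.41 and 9.14 in InvCREER, against 8.26 and 8.43 in K14CREER. Both InvCREER arrays were above both K14CREER arrays, and the means were 9.28 ± 0.19 and 8.34 ± 0.12 (SD, n = 2 arrays per line). The difference was 0.93 (SE 0.22, 95% interval 0.41 to 1.46), a ratio of 1.91, and it did not pass the adjusted test (adjusted p = 0.118 by limma). With any 1 array left out the difference was 0.80 to 1.07.

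Erbb3, whose product has a weak kinase and binds neuregulins, followed the same order. It read 10.56 and 10.18 in InvCREER, against 10.00 and 9.59 in K14CREER. The lines did not overlap, but the lower InvCREER array and the higher K14CREER array were close. The difference was 0.58 (SE 0.23, 95% interval 0.03 to 1.13, adjusted p = 0.332 by limma). It was 0.39 without InvCREER 1 and 0.37 without K14CREER 2. The second Erbb3 probe set lay below the filter, at 4.79 and 4.86 in InvCREER, against 5.19 and 4.68 in K14CREER. InvCREER 1, the array with the highest Erbb2 and Erbb3, was also the one with the highest sebaceous and Langerhans marker means and the highest Actb 3' to 5' ratio, and their part in these differences was not tested. Without that array Erbb2 lay 0.80 above K14CREER. The remaining InvCREER 2 also had a sebaceous mean above both K14CREER arrays, at 8.01 against 6.62 and 6.05. Its Langerhans mean was 6.21, against 5.76 and 5.44.

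Egfr, the receptor for most of the ligands read here, had 7 probe sets, of which 5 were tested. Its brightest probe set read 9.56 and 9.25 in InvCREER, against 9.46 and 9.95 in K14CREER. The lines overlapped, and the difference was -0.30 (SE 0.24, 95% interval -0.88 to 0.29, adjusted p = 0.716 by limma). The next brightest read 9.35 and 9.24 in InvCREER, against 9.80 and 9.42 in K14CREER, with no overlap and a difference of -0.32 (adjusted p = 0.626 by limma). The differences of the 3 dimmer tested probe sets were 0.00, -0.28 and 0.12. The K14CREER arrays were ordered differently by the 2 brightest probe sets, K14CREER 2 being higher on the brightest and K14CREER 1 on the next. The intervals of these 2 probe sets leave room for InvCREER to lie up to 0.88 below K14CREER.

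Erbb2 and Errfi1 are the genes with the largest differences without overlap, 1 in each direction, and the 250 bases before their annotated starts are shown for that reason. They come from RefSeq promoter windows of GRCm38.p6, which held 7 of the 10 genes. Both genes lie on the plus strand. The window of Erbb2 is chr11:98412234-98412483, and those of the 2 annotated Errfi1 starts are chr4:150853546-150853795 and chr4:150854820-150855069. Capitals mark matches, on either strand, to the letters TATAAA (the TATA box), GGGCGG (the GC box), TGANTCA (the site of AP-1), CCAAT (the CCAAT box) or CCGGAA (a core bound by ETS factors).
Erbb2: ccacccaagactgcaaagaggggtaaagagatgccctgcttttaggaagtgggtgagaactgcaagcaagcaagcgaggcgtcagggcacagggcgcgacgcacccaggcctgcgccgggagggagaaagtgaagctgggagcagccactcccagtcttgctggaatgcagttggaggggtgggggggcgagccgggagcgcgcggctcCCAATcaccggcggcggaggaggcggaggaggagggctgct
Errfi1 start 1: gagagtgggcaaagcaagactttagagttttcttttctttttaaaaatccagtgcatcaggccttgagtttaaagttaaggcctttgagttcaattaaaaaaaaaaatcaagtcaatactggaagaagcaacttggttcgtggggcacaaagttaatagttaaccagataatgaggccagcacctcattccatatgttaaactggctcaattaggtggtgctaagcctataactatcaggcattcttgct
Errfi1 start 2: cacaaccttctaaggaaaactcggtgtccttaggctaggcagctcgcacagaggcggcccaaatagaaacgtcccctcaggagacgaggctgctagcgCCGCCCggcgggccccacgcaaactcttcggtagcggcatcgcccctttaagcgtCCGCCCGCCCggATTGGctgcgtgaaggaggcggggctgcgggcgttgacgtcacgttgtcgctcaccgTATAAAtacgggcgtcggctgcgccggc
The Erbb2 window held 1 CCAAT match and no other motif searched, and 66.0% of its bases were G or C. The first Errfi1 window held none of them and was 38.0% G or C. The second was 64.8% G or C and held 3 GC boxes, the last 2 of which overlap, 1 CCAAT match and 1 TATAAA. Among 32851 windows of this length, 33.8% held CCAAT, 32.7% GGGCGG, 12.4% TATAAA, 12% CCGGAA and 6.75% TGANTCA, and the median was 52.4% G or C. The Erbb2 window and the second Errfi1 window both held CCAAT, a match of letters that shows no binding.

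Errfi1 had the largest difference of the inhibitors. Its product, also called MIG6, binds the kinase domain of the receptors, blocks it, and is itself induced by receptor activity. Its brighter probe set read 8.93 and 9.14 in InvCREER, against 11.11 and 9.72 in K14CREER. Both InvCREER arrays were below both K14CREER arrays, and K14CREER 1 was far above K14CREER 2. The difference was -1.38 (SE 0.43, 95% interval -2.43 to -0.34, adjusted p = 0.220 by limma). The second probe set, which can match several transcripts, read 6.74 and 7.22 in InvCREER, against 8.80 and 7.66 in K14CREER, again without overlap. Its difference was -1.25 (SE 0.41, adjusted p = 0.244 by limma). The size rested on 1 array: without K14CREER 1 the brighter probe set was at -0.69, and without K14CREER 2 at -2.08, where it passed the test (adjusted p = 0.0382 by limma).

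Lrig1, a transmembrane protein that binds ERBB receptors and lowers their level, marks a stem cell population of the upper hair follicle in mouse skin. Its brightest probe set read 8.43 and 7.36 in InvCREER, against 8.06 and 8.23 in K14CREER. The InvCREER arrays lay on either side of the K14CREER arrays. The second probe set had the same order, with 7.97 and 7.04 in InvCREER, against 7.56 and 7.95 in K14CREER. The third was near the filter, at 5.79 and 5.65 in InvCREER, against 5.83 and 5.59 in K14CREER. The difference of the brightest was -0.24 (SE 0.37, 95% interval -1.14 to 0.65, adjusted p = 0.878 by limma). It was 0.29 without InvCREER 2 and -0.78 without InvCREER 1. The gap between the InvCREER arrays, 1.07, was equalled or passed by 3.46% of tested probe sets. The brightest Lrig1 probe set can match several transcripts.

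**Figure D3:**
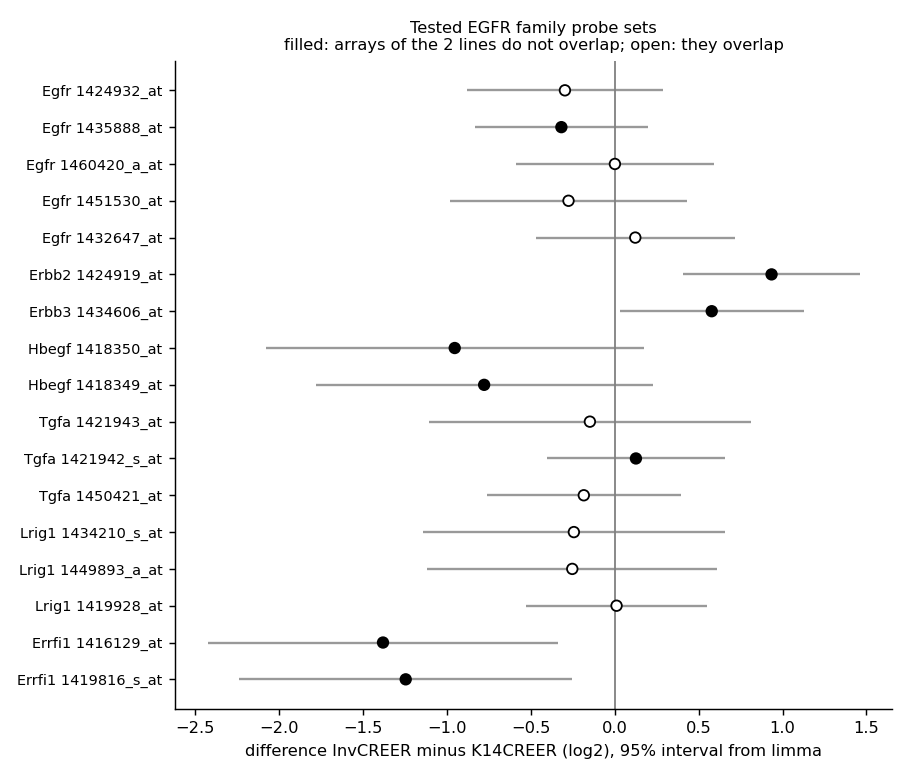
Difference between InvCREER and K14CREER (log2) of the 17 tested probe sets, with the 95% interval from limma. Filled points are probe sets on which the arrays of the lines do not overlap. The intervals of Erbb2, Erbb3 and both Errfi1 probe sets leave out 0 before adjustment, and those of all others include it.

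On the brightest probe sets of the ligands Hbegf, Ereg and Tgfa, the K14CREER arrays lay farther apart than the InvCREER arrays. Hbegf encodes heparin-binding EGF-like growth factor, a ligand that keratinocytes make at wound edges. Its brighter probe set read 7.23 and 7.57 in InvCREER, against 9.07 and 7.64 in K14CREER, and the other 6.34 and 6.22 in InvCREER, against 7.68 and 6.43 in K14CREER. The lines did not overlap on either, but K14CREER 2 lay just above the higher InvCREER array on both. The differences were -0.95 (SE 0.47, 95% interval -2.08 to 0.17, adjusted p = 0.455 by limma) and -0.78 (adjusted p = 0.504 by limma). Without K14CREER 1 they were -0.24 and -0.15.

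Ereg encodes epiregulin, a ligand of EGFR and ERBB4. It read 4.37 and 3.57 in InvCREER, against 8.03 and 3.62 in K14CREER. Ereg was above the filter value on K14CREER 1 alone, and K14CREER 2 lay between the InvCREER arrays. Its mean was below the filter, so it has no test in the main fit. With no filter its difference of -1.86 had an adjusted p of 0.724 by limma, and without K14CREER 1 it was 0.34. K14CREER 1 exceeded K14CREER 2 by 4.41, a gap in that direction equalled or passed by 0.0111% of all 45037 probe sets, Ereg included.

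Tgfa encodes transforming growth factor alpha, a ligand made by keratinocytes themselves. Its brightest probe set read 6.61 and 7.19 in InvCREER, against 7.56 and 6.54 in K14CREER. The lines overlapped, and the difference was -0.15 (SE 0.40, 95% interval -1.11 to 0.81, adjusted p = 0.943 by limma). It was 0.36 without K14CREER 1 and 0.14 without InvCREER 1. The other probe sets read 6.34 and 6.43 in InvCREER, against 6.26 and 6.26 in K14CREER, and 5.40 and 5.27 in InvCREER, against 5.73 and 5.31 in K14CREER. Their differences were 0.13, without overlap between the lines, and -0.18, with overlap, so the 3 probe sets did not share a sign. Btc, the gene of betacellulin, lay below the filter on both probe sets. The brighter read 4.41 and 4.76 in InvCREER, against 4.52 and 4.35 in K14CREER, and the dimmer 3.12 and 3.10 in InvCREER, against 3.52 and 3.27 in K14CREER. These values are near background and show no level that could be compared.

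K14CREER 1 thus had the highest value of Ereg, Hbegf, Tgfa and Errfi1 on their brightest probe sets. Its excess over K14CREER 2 was 1.43 for Hbegf, 1.39 for Errfi1 and 1.02 for Tgfa. Gaps at least as large in that direction were seen in 0.480%, 0.520% and 1.38% of tested probe sets. On their brightest probe sets Erbb2 and Lrig1 did not share this order, with K14CREER 1 below K14CREER 2 by 0.17 for both. Egfr was below by 0.49 on its brightest probe set. On its other tested probe sets K14CREER 1 minus K14CREER 2 was 0.38, 0.37, -0.70 and 0.35. Erbb3 was higher on K14CREER 1, by 0.41. Dermal fibroblast markers, Merkel cell markers and Cd34 were also highest on K14CREER 1. So were the means of the basal keratinocyte, hair follicle, melanocyte and T cell lists, at 12.40, 7.59, 6.28 and 5.16. The basal list was close to this on K14CREER 2, at 12.30, and the melanocyte list on InvCREER 2, at 6.21. Of the 6 named T cell markers 4 lay below the filter. K14CREER 1 was the highest array for only 2 of the 6, of which Thy1 was by far the brighter. K14CREER 1 was the highest array for 9 of the 10 fibroblast markers and for 5 of the 8 Merkel cell markers. Of the 5 tested fibroblast markers, 2 were also lower on both InvCREER arrays than on both K14CREER arrays. These were Dcn and Thy1, the brightest of the list, while the other tested ones overlapped between the lines. Dcn, which encodes decorin, read 7.09 and 7.75 in InvCREER, against 9.50 and 9.07 in K14CREER (difference -1.87, adjusted p = 0.0552 by limma). Thy1, which is also on the T cell list, read 6.64 and 6.71 in InvCREER, against 9.18 and 7.80 in K14CREER (difference -1.81, adjusted p = 0.131 by limma). The collagen gene Col1a1, at 4.34 and 4.04 in InvCREER, against 5.03 and 4.47 in K14CREER, and the genes Lum and Pdgfra lay below the filter value on all 4 arrays. Of the Merkel cell markers, Krt8 and Krt18 read 7.44 and 7.69 on K14CREER 1, while Atoh1, Sox2 and Krt20 lay below the filter value on all 4 arrays. K14CREER 1 also had a larger 3' excess than K14CREER 2 in the control probe sets, at 0.94 against 0.68 for Actb and 0.33 against 0.07 for Gapdh. The parts of other cells and of RNA quality in the ligand values were not tested.

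**Figure D4:**
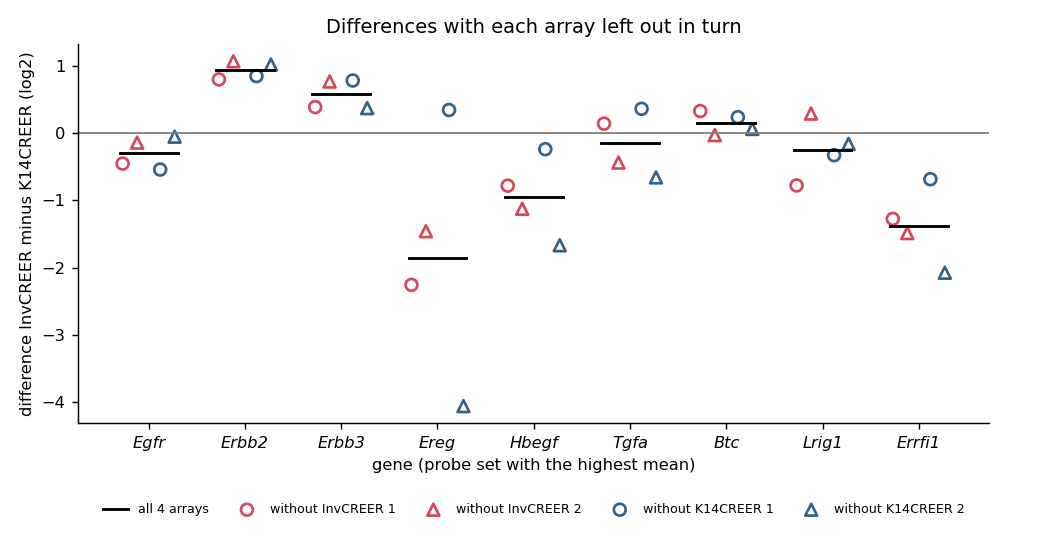
Difference between InvCREER and K14CREER (log2) of the 9 genes on all 4 arrays (black bars) and with each array left out in turn (open symbols, coloured by the line of the array left out; circles array 1, triangles array 2). Erbb2 stays between 0.80 and 1.07, while Ereg runs between -4.06 and 0.34 depending on which K14CREER array is used.

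The rest of the pathway was read from lists, each gene from its probe set with the highest mean. Of 11270 tested genes 1.33% were called. Among 9 further receptors, ligands and LRIG genes 4 were tested and 0 were called. At an unadjusted p under 0.05 by limma there were 2 of the 4, against 16.1% of all tested genes. Epgn encodes epigen, another EGFR ligand. It read 6.20 and 6.37 in InvCREER, against 9.44 and 7.40 in K14CREER, with K14CREER 1 highest as for the ligands above. Its difference was -2.14 (SE 0.62, 95% interval -3.63 to -0.65, adjusted p = 0.182 by limma). It was -1.12 without K14CREER 1 and -3.16 without K14CREER 2. Nrg4 encodes a neuregulin that binds ERBB4. It went the other way, at 7.68 and 6.22 in InvCREER, against 5.14 and 5.08 in K14CREER, with a difference of 1.84 (SE 0.46, adjusted p = 0.137 by limma). Both K14CREER values lay below the filter value of 5.42, so Nrg4 was tested only through its InvCREER values. Its second probe set was below the filter, at 6.52 and 5.21 in InvCREER, against 4.52 and 4.07 in K14CREER. With 1 array left out the difference of the brighter probe set ran from 1.11 without InvCREER 1 to 2.56 without InvCREER 2. InvCREER 1 was the higher InvCREER array by far, as it was for the sebaceous and Langerhans markers. The receptor gene Erbb4 was below the filter, at 3.22 and 3.45 in InvCREER, against 3.32 and 3.41 in K14CREER. Lrig2 was at 0.15 (adjusted p = 0.916 by limma).

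Among 7 genes of ligand shedding 6 were tested and 1 was called. Timp3, an inhibitor of ADAM17 and of other metalloproteinases, fell by 1.49 in log2 units (SE 0.21, adjusted p = 0.0429 by limma). It read 8.22 and 8.14 in InvCREER, against 9.82 and 9.51 in K14CREER, so that the lines were far apart. The 2 other tested Timp3 probe sets were at -1.57 and -1.37 (adjusted p = 0.0728 and 0.0611 by limma). The call was lost without either K14CREER array (adjusted p = 0.171 without K14CREER 1 and 0.0902 without K14CREER 2 by limma), without the variance trend (0.0644) and with dim probe sets kept (0.0512). Rhbdf2, which carries ADAM17 to the cell surface, was at 1.29 (SE 0.31, adjusted p = 0.126 by limma), with 9.23 and 8.53 in InvCREER, against 7.80 and 7.38 in K14CREER. With 1 array left out Rhbdf2 ran from 0.94 without InvCREER 1 to 1.64 without InvCREER 2. Adam17 itself was at 0.17 (SE 0.18, 95% interval -0.28 to 0.61, adjusted p = 0.813 by limma).

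Genes that carry the signal from the receptor gave no call with the settings used throughout. Of 10 adaptor genes, 10 genes of receptor endocytosis, 5 genes of the ERK cascade and 9 genes of the PI3K and STAT arm that were tested, 0 were called in each list by limma. At an unadjusted p under 0.05 they had 0, 1, 1 and 0 genes, against 16.1% of all tested genes. Their median differences were -0.07, 0.01, 0.17 and 0.00. The widest was Sh3kbp1, which encodes the endocytic adaptor CIN85. It read 8.13 and 9.02 in InvCREER, against 6.54 and 5.57 in K14CREER, with a difference of 2.52 (SE 0.43, adjusted p = 0.0590 by limma). It passed in 5 of the 13 alternatives that tested it, with adjusted p from 0.00158 (without InvCREER 1) to 0.133 (without K14CREER 2) over all 13 by limma. All 4 of its probe sets lay higher on both InvCREER arrays. The kinase gene Araf was at 0.74, the ubiquitin ligase gene Cblb at -0.67 and Cblc at 0.37. The docking protein gene Gab1 was at 0.46, Crk at -0.29 and Grb2 at -0.22. Map2k2 was at 0.22, Map2k1 at -0.21, Pik3r1 at -0.38, Pik3r2 at 0.33 and Akt1 at -0.23. None of these 11 genes passed the test (adjusted p of at least 0.347 by limma).

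The ERK feedback list holds genes that dampen RAS-ERK signalling. Most are known to be induced by ERK, but Rasa1 and Nf1 encode RAS GTPase-activating proteins that are not classed as such. Of 9 tested genes 1 was called, and 8 had lower means in InvCREER. In 7 of the 9 both InvCREER arrays were below both K14CREER arrays, against 24.1% of all tested genes. Rasa1, at -0.17, and Nf1, at -0.42, were among these 7. The median difference of the list was -0.58, against -0.01 over all tested genes. Since the list was chosen with earlier results of these data known, this share and this median are no independent test. Dusp6, an ERK phosphatase, read 7.77 and 7.50 in InvCREER, against 9.94 and 9.28 in K14CREER. It fell by 1.98 in log2 units (SE 0.29, adjusted p = 0.0431 by limma), a call lost without K14CREER 1 (-1.64, adjusted p = 0.132 by limma) and without the variance trend (adjusted p = 0.0685 by limma). Spred2, an inhibitor of RAF activation, was at -1.23 (SE 0.21, adjusted p = 0.0611 by limma), with 9.84 and 9.38 in InvCREER, against 10.73 and 10.93 in K14CREER. It passed in 5 of 14 alternatives, among them without InvCREER 1 and without InvCREER 2 (adjusted p = 0.00688 and 0.035 by limma), and the adjusted p ran up to 0.200 without K14CREER 2. Dusp4 had the opposite sign, at 1.57 (SE 0.54, adjusted p = 0.260 by limma), and read 7.33 and 5.65 in InvCREER, against 5.17 and 4.67 in K14CREER. Both of its K14CREER values lay below the filter value of 5.42, so it was tested only through its InvCREER values. Basal keratinocyte markers were lower in InvCREER on the same arrays, and their part in the feedback genes was not tested.

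Of 11 tested growth factor response genes 0 were called by limma, against 1.33% of all tested genes, and 6 had lower means. At an unadjusted p under 0.05 by limma there were 4, against 16.1% of all tested genes. Without overlap, 3 were higher in InvCREER and 4 lower, against 21.3% and 24.1% of all tested genes. The 3 higher ones were the immediate early genes Egr1, at 0.47, Fos, at 0.38, and Ier2, at 0.34 (adjusted p = 0.442, 0.282 and 0.412 by limma). Ccnd1, which encodes cyclin D1, had the smallest p of the list, with 11.40 and 11.36 in InvCREER, against 12.11 and 11.92 in K14CREER. Its difference was -0.64 (SE 0.13, adjusted p = 0.0860 by limma), with adjusted p from 0.028 to 0.308 over 14 alternatives. Etv5, an ETS factor induced by ERK, read 6.99 and 7.22 in InvCREER, against 8.18 and 9.50 in K14CREER, and K14CREER 2 was its highest array. Its difference was -1.74 (SE 0.43, adjusted p = 0.134 by limma), and Etv4 was at -0.79 (adjusted p = 0.265 by limma). With 1 array left out Etv5 ran from -2.39 without K14CREER 1 to -1.08 without K14CREER 2. Phlda1 was highest on K14CREER 1, as were the brightest probe sets of the ligands Hbegf, Ereg and Tgfa. It read 6.89 and 6.02 in InvCREER, against 9.47 and 6.24 in K14CREER. Its difference was -1.40 (adjusted p = 0.640 by limma) and was 0.22 without K14CREER 1.

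**Figure D5:**
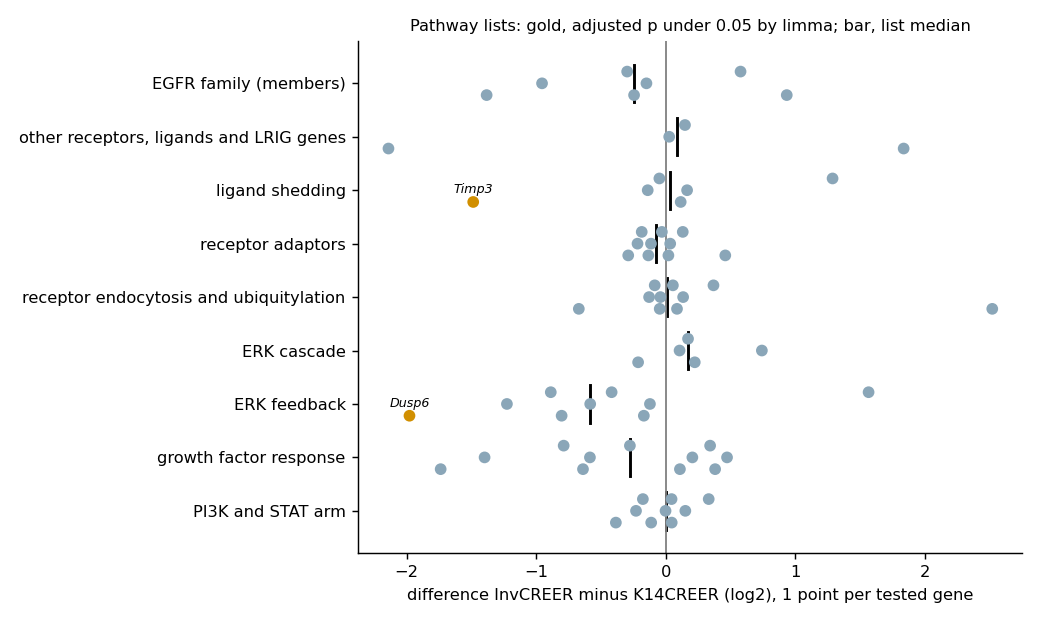
Difference between InvCREER and K14CREER (log2) of every tested gene in the EGFR family and in 8 pathway lists, 1 point per gene, with the list median as a black bar. Timp3 and Dusp6 (gold) are the genes called by limma, and the ERK feedback list has the lowest median, -0.58.

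The profile of Erbb2, the member with the smallest p, was compared with those of 11269 other tested genes. Each profile was centred on its own mean, and likeness was the root mean square distance over the 4 arrays. The closest genes were Plekhg6 at a distance of 0.0388 log2 units, Irak3 at 0.0395 and Pou3f1 at 0.0435. Pou3f1, a POU-domain transcription factor, read 10.16 and 9.95 in InvCREER, against 9.02 and 9.29 in K14CREER. With 4 arrays such a match describes these arrays only.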

How the data were processed

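Per the labels' protocols, each Affymetrix array received target made by 3' in vitro transcription from 100 ng of RNA. The deposited values are log2 values, 1 per probe set and array, which the authors made by RMA. The submitters' processing notes name Expression Console 1.1 as the software. Since RMA equalises the distributions, a cell's overall RNA content cannot be read from them. The number of arrays limits the precision.

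Of 45101 probe sets 64 controls were set aside. Those with a mean over the 4 arrays at or above the median of the rest (5.42) were tested, 22519 in all. Names came from the platform annotation, with symbols updated by Entrez number in a RefSeq table of GRCm38.p6: 34945 probe sets had 1 symbol, 932 several and 9160 none, and only the first kind was named. The lines were compared in R 4.3.3 by limma 3.58.1 (lmFit, eBayes with trend, 2-sided, no block), with Benjamini-Hochberg adjustment over all tested probe sets. The fit was tested on simulated data. SE is the moderated standard error. A gene was read from its probe set with the highest mean, and all probe sets of members are given. Named beyond the members were all called genes of each pathway list and those with the largest differences, to 3 per list. Erbb4, Ccnd1, Egr1, Fos, Ier2, Rasa1, Nf1, Dcn, Thy1, Col1a1, Lum, Pdgfra, Atoh1, Sox2, Krt20, Krt8, Krt18 and the checks of the sort were named outside that rule, after their values were seen. The members and lists were chosen with earlier results of these data known. Alternatives changed the filter, the variance trend, weights per array, the scaling, the unit of testing, the kinds of probe set, a block for replicate number, or left out 1 array. Figures were drawn with matplotlib 3.10.9.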

Additional observations from a re-analysis of the deposited data

How the results depend on the processing

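Of the 14 alternatives, 12 gave 0 called EGFR family probe sets, as did the settings used in the report. With the replicate number as a block there was 1 call, Erbb2 (0.93, SE 0.18, adjusted p = 0.0405 by limma), while all calls went to 1390, against 216. The block also called Sh3kbp1, Spred2, Etv5, Rhbdf2, Nrg4 and Ccnd1 (adjusted p of 0.0302, 0.0233, 0.0269, 0.0179, 0.0443 and 0.028 by limma). With 1 array left out the family had 0 to 1 calls (Errfi1, without K14CREER 2), and all calls ran from 82 without K14CREER 1 to 981 without InvCREER 2. Deviations of same-numbered arrays from their line mean correlated across tested probe sets at r = 0.38. InvCREER 2 and K14CREER 2 had the smallest median absolute difference of any pair, 0.23, against 0.25 within each line. For InvCREER 1 and K14CREER 1 it was 0.28. With 2 pairs and no label that ties the numbers to an animal or day, what same-numbered arrays have in common is not known. All calls were 405 with the stricter filter (a mean of at least 7.73), 122 without the variance trend, 551 with 1 probe set per gene and 450 with the mean of a gene's probe sets. The cause of these shifts was not tested. Signs of member differences turned for Lrig1 without InvCREER 2 (0.29, with a range of -0.78 to 0.29 over the arrays left out) and for Tgfa without InvCREER 1 (0.14) and without K14CREER 1 (0.36, range -0.66 to 0.36). They also turned for the untested Ereg without K14CREER 1 (0.34) and Btc without InvCREER 2 (-0.03). Egfr, Erbb2, Erbb3, Hbegf and Errfi1 kept their sign in all 14. Tgfa could not be fitted with the stricter filter, since its probe sets fall under it. Values near 5.42 or below it lie near background, which limits what can be said of Ereg and Btc, and of Nrg4 and Dusp4 in K14CREER.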
